A study of Mus musculus with 8 samples.

Results

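The 10 genes described here encode fibronectin (*Fn1*), periostin (*Postn*), tenascin C (*Tnc*), tenascin X (*Tnxb*), SPARC (*Sparc*), its relative hevin (*Sparcl1*), thrombospondin 1 (*Thbs1*), thrombospondin 2 (*Thbs2*), osteopontin (*Spp1*) and versican (*Vcan*). They were taken by symbol from the 16686 genes of the deposited table, and all 10 were found in it and passed the filter on low counts. Expression in the tibialis anterior (TA), a fast muscle of the lower leg, was measured by RNA-seq in 4 wild-type (WT Old) mice and 4 mice without fast myosin-binding protein C (C2-/- Old), with one library per mouse from bulk tissue. All 8 were males on the FVBN background with a labelled age of 22 months, while the growth protocol in the same labels speaks of 2 months. C2-/- Old mice carry a Neo cassette with LoxP sites in *Mybpc2* where exons 2 to 22 would lie, with no restriction to a cell type, and no other allele or treatment is named for either genotype. WT Old differed from C2-/- Old in the labels by genotype alone.

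Fibronectin is laid down by cells as fibrils on which collagens and other matrix proteins assemble. The matricellular proteins, which include periostin, the tenascins, SPARC, hevin, the thrombospondins and osteopontin, are secreted into the matrix but mostly change how cells attach to it and sense growth factors rather than bear load themselves. In skeletal muscle they come largely from fibroblasts, fibro-adipogenic progenitors, tendon cells, vessels and macrophages, and several of them are known for their high expression in injured or fibrotic muscle. Versican is a large proteoglycan that holds hyaluronan in the provisional matrix.

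Each mouse gave between 25425986 and 29747692 estimated counts, and the 10 genes took between 0.0286% and 0.0521% of them. Levels are given as CPM, that is, counts relative to the library size after correction by the TMM factors of edgeR, and the detection floor of 3 counts corresponded to 0.101 to 0.118 CPM, which covers counting error only. The targeted gene *Mybpc2* was at 4964, 5450, 5101 and 7392 CPM in WT Old replicates 1 to 4 and at 4.35, 4.02, 38.3 and 3.85 CPM in C2-/- Old replicates 1 to 4. C2-/- Old replicate 3 thus kept more *Mybpc2* RNA than the other knockout mice, and values without it are given beside most of the genes and beside the ratios. The muscle fibre genes *Acta1*, *Ckm*, *Tnnt3*, *Myh4*, *Myh1*, *Myh2*, *Myh7* and *Mylpf* summed to between 139970 and 181820 CPM in WT Old and between 145590 and 164760 CPM in C2-/- Old, and none of them was at 0 in every mouse. Of these 8 genes, 2 had a higher and 6 a lower fitted level in C2-/- Old, while 45.8% of all tested genes were higher. An unadjusted p under 0.05 was reached by 1, against 5.29% of all tested genes. This was *Myh7*, the myosin of slow fibres (6.48 ± 9.65 and 1.17 ± 0.733 CPM, SD, n = 4 each, log2 fold change -2.47, SE 0.999, unadjusted p = 0.0322, adjusted p = 0.914, edgeR), which was at 20.9 CPM in WT Old replicate 4.

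The genotypes were compared to ask which of these matrix genes differ in expression between old muscle with and without fast myosin-binding protein C. Of the 10 genes, 9 had a higher and 1 a lower fitted level in C2-/- Old than in WT Old, while 45.8% of all 12542 tested genes were higher. The 9 include *Sparcl1*, which was level (log2 fold change 0.0015, unadjusted p = 0.994, edgeR). They also include *Spp1*, whose fitted direction rested on 1 mouse and turned without it. An unadjusted p under 0.05 was reached by 5 genes, *Fn1*, *Postn*, *Tnxb*, *Sparc* and *Thbs2*, against 5.29% of all tested genes (edgeR's quasi-likelihood test). All 5 were higher in C2-/- Old, against 3.38% of all tested genes in that direction. In the other direction the number was 0 of 10, against 1.91% of all tested genes. After Benjamini-Hochberg adjustment over all tested genes, 0 of the 10 genes had a p under 0.05, against 0.0319% of all tested genes, and the number was also 0 with limma-voom and with DESeq2. The median log2 fold change was 0.64 over the 10 genes and -0.02 over all tested genes. In bulk tissue, a higher level from more cells of a type cannot be told apart from one with more RNA per cell. The plot of the difference between the genotypes orders the genes by their log2 fold change and sets beside each the range that it covered when each mouse was left out.

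**Figure D1:**
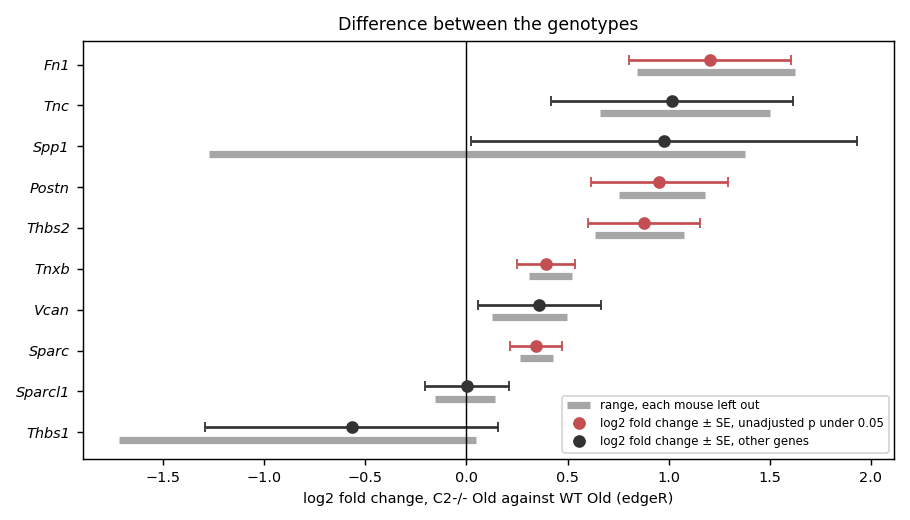
Log2 fold change of C2-/- Old against WT Old for the 10 genes (x axis), with the standard error as whiskers, in red for an unadjusted p under 0.05 and in black otherwise. Grey bars span the values obtained with each of the 8 mice left out, which cross 0 for *Spp1*, *Sparcl1* and *Thbs1*.

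The 5 genes with an unadjusted p under 0.05 include 4 for which RefSeq promoter sequences were given (*Postn*, *Tnxb*, *Sparc* and *Thbs2*), and the 250 bases before the annotated start of each are shown for what these genes do and do not share upstream. The sequences are from RefSeq on build GRCm38.p6, written 5′ to 3′ on the strand of the gene, and capitals mark a match to the TATA box (TATAAA) or to the AP-1 element (TGANTCA) on either strand.
Postn chr3:54360857-54361106 (+ strand): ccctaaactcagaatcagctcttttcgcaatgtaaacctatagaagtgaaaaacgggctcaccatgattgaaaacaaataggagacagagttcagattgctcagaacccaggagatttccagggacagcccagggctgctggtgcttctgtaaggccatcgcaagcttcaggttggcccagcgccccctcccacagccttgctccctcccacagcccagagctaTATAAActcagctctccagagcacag
Tnxb chr17:34670285-34670534 (+ strand): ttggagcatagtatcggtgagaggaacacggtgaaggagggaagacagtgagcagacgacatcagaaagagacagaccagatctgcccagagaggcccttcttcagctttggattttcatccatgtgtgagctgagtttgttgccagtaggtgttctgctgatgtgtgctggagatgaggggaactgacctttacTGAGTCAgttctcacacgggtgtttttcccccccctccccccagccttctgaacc
Sparc chr11:55420081-55420330 (- strand): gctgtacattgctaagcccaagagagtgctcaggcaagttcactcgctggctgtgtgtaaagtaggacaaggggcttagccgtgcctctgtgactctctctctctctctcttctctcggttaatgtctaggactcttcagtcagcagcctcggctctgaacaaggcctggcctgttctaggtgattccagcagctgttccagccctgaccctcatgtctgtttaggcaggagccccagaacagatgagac
Thbs2 chr17:14694263-14694512 (- strand): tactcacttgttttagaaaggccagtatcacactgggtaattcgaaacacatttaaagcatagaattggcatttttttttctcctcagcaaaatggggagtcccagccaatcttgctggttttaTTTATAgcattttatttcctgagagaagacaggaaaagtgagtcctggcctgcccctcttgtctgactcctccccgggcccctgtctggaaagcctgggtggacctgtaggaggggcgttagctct
The windows of *Postn* and *Tnxb* lie within the annotated span of their genes, upstream of a start inside it. *Postn* holds TATAAA with its first base 26 bases before the start. *Thbs2* holds the same motif on the opposite strand, 126 bases before the start, while 12.4% of the 32851 promoter windows of this length hold it. *Tnxb* holds the AP-1 letters 55 bases before the start, against 6.7% of all windows, and the window of *Sparc* holds neither motif. The Smad-binding box (CAGACA, both strands, in 17.1% of all windows) occurs 1 time in *Sparc*, 36 bases before the start, and 2 times in *Thbs2*, 67 and 44 bases before it. The CCAAT box (CCAAT, both strands, in 33.8% of all windows) occurs 2 times in *Thbs2*, 186 and 144 bases before the start, and the GC box (GGGCGG, both strands, in 32.7% of all windows) in none of the 4. No motif was shared by all 4 windows, and no match overlapped another in them. A match describes these letters alone and not the binding of a factor.

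*Fn1*, whose product is the scaffold for other matrix proteins, had the largest fitted fold change of the 10 genes, although *Tnc* and *Thbs2* were above it without C2-/- Old replicate 3 or with sample quality weights in limma-voom, and *Spp1* without WT Old replicate 1 or C2-/- Old replicate 3 or 4. It lies on chromosome 1 from 71585473 to 71653280 on the minus strand (GRCm38.p6). In WT Old replicates 1 to 4 its level was 20.1, 14.6, 49.6 and 28.9 CPM. In C2-/- Old replicates 1 to 4 it was 61.4, 38.0, 109 and 52.1 CPM. The means were 28.3 ± 15.3 CPM in WT Old and 65.2 ± 31.0 CPM in C2-/- Old (SD, n = 4 each), 2.30-fold higher in C2-/- Old, with a log2 fold change of 1.20 (SE 0.40, edgeR, unadjusted p = 0.0125, adjusted p = 0.766). All knockout mice except replicate 2 lay above every wild-type mouse, and that mouse, at 38.0 CPM, lay below WT Old replicate 3, so there was overlap. A two-sided exact permutation test of log2 CPM gave p = 0.0571, where 0.0286 is the smallest p possible with 4 mice in each group. With each mouse left out in turn, the unadjusted p stayed between 0.00138 and 0.0471, and the log2 fold change between 0.84, without C2-/- Old replicate 3, the highest mouse, and 1.63, without WT Old replicate 3. Of the tested genes, *Maged2* followed *Fn1* most closely across the 8 mice (Pearson r of log2 CPM = 0.97). Such an r is the highest over all tested genes in only 8 mice, and it lay between 0.96 and 0.99 for all 10 genes. A pick of this kind gives a high r by its making, here and for the genes below, and no link was tested.

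*Postn* encodes periostin, which binds collagen and fibronectin and is expressed by activated fibroblasts. It lies on chromosome 3 from 54359267 to 54391041 on the plus strand. Its level was low, at 0.964, 0.766, 2.02 and 1.88 CPM in WT Old and 2.69, 2.68, 3.55 and 2.01 CPM in C2-/- Old replicates 1 to 4, from between 21 and 100 counts per mouse. The lowest knockout mouse, replicate 4, and the highest wild-type mouse, replicate 3, were almost level, and the other knockout mice were above every wild-type mouse. The means of 1.41 ± 0.634 CPM in WT Old and 2.73 ± 0.630 CPM in C2-/- Old (SD, n = 4 each) differed by a log2 fold change of 0.95 (SE 0.34, 1.94-fold, unadjusted p = 0.0177, adjusted p = 0.829, edgeR). The two-sided exact permutation test of log2 CPM gave p = 0.0571 and, with library sizes alone in place of TMM factors, 0.0286. Without C2-/- Old replicate 3 the log2 fold change was 0.81 and its unadjusted p 0.0538. *Arsi* was the gene most like it across the 8 mice (r = 0.96).

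The tenascins are large glycoproteins with EGF-like and fibronectin type III repeats. *Tnxb*, on chromosome 17 from 34660453 to 34719815 on the plus strand, encodes tenascin X, which sits on collagen fibrils in the mature connective tissue of muscle and skin. Its level was 56.8, 56.3, 78.4 and 60.6 CPM in WT Old and 74.0, 80.0, 98.0 and 78.9 CPM in C2-/- Old. The values were tight, with an SD of 16.5% of the mean in WT Old and 12.7% in C2-/- Old, and 1 knockout mouse, replicate 1, lay below the highest wild-type mouse, replicate 3. The log2 fold change was 0.39 (SE 0.14, 1.31-fold, unadjusted p = 0.0198, adjusted p = 0.849, edgeR; exact permutation p = 0.0571). It was 0.34 (edgeR, unadjusted p = 0.0564) without WT Old replicate 1 and 0.31 (edgeR, unadjusted p = 0.0597) without C2-/- Old replicate 3. The gene most like *Tnxb* across the 8 mice was *Col5a1* (r = 0.98), a chain of the collagen that sets the width of collagen I fibrils.

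*Tnc*, on chromosome 4 from 63959785 to 64047015 on the minus strand, encodes tenascin C, which is scarce in resting muscle and abundant at the muscle-tendon junction and in regenerating tissue. It had few reads, with 7 to 109 counts per mouse. Its level was 0.270, 0.584, 2.09 and 1.56 CPM in WT Old and 1.85, 2.68, 0.816 and 3.78 CPM in C2-/- Old. The genotypes overlapped widely, since C2-/- Old replicate 3 lay below WT Old replicates 3 and 4. The log2 fold change of 1.02 (SE 0.60, 2.02-fold) did not pass the test (unadjusted p = 0.119, edgeR; exact permutation p = 0.200), and its p was 0.0399 without WT Old replicate 3 and 0.0489 without C2-/- Old replicate 3. An antisense gene, *8030451A03Rik*, runs on the plus strand from 63979854 to 64149924 across *Tnc*, the deposited table gives *Tnc* the plus strand and an end at 64149925, and whether the strand was used in counting is not given in the sources used here, so reads of the pair cannot be told apart. *Klhl36* was the gene most like *Tnc* (r = 0.99). Within each mouse, the log2 ratio of *Tnxb* to *Tnc* was 6.05 ± 1.05 in WT Old and 5.32 ± 1.05 in C2-/- Old (SD, n = 4 each), a difference of -0.73 that was smaller than the spread (exact permutation p = 0.400, adjusted p = 0.400 over 3 such ratios). Single mice moved this difference, to -0.29 without WT Old replicate 1, -0.41 without C2-/- Old replicate 4 and -1.22 without C2-/- Old replicate 3.

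SPARC and hevin share a calcium-binding domain, and SPARC binds collagens and takes part in fibril assembly. *Sparc*, on chromosome 11 from 55394159 to 55420080 on the minus strand, was at 109, 109, 136 and 118 CPM in WT Old and 139, 131, 176 and 153 CPM in C2-/- Old. Replicate 2 was the 1 knockout mouse below the highest wild-type mouse, replicate 3. The means of 118 ± 12.9 and 149.8 ± 20.0 CPM (SD, n = 4 each) gave a log2 fold change of 0.34 (SE 0.13, 1.27-fold, unadjusted p = 0.0226, adjusted p = 0.852, edgeR; exact permutation p = 0.0571). It was 0.31 (edgeR, unadjusted p = 0.0609) without WT Old replicate 1 and 0.26 (edgeR, unadjusted p = 0.0685) without C2-/- Old replicate 3. *Ace* was the gene most like it across the mice (r = 0.96).

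*Sparcl1*, on chromosome 5 from 104079108 to 104114088 on the minus strand, had almost the same mean in both genotypes. Its level was 179.5, 98.3, 195 and 140.0 CPM in WT Old and 153, 188, 124 and 148 CPM in C2-/- Old, with the highest and the lowest of the 8 values both in wild-type mice. The means were 153 ± 43.2 and 153 ± 26.4 CPM (SD, n = 4 each), and the log2 fold change was 0.00 (SE 0.21, unadjusted p = 0.994, edgeR; exact permutation p = 0.857). The wild-type mouse highest in *Sparcl1*, replicate 3, was also the wild-type mouse highest in *Sparc*, while C2-/- Old replicate 3 was the highest knockout mouse for *Sparc* and the lowest for *Sparcl1*. The log2 ratio of *Sparc* to *Sparcl1* within each mouse was -0.33 ± 0.37 in WT Old and -0.03 ± 0.43 in C2-/- Old (SD, n = 4 each), a difference of 0.31 that did not pass the test (exact permutation p = 0.343, adjusted p = 0.400 over 3 ratios). With each mouse left out this difference lay between 0.13, without C2-/- Old replicate 3, and 0.47, without C2-/- Old replicate 2. It was 0.18 without WT Old replicate 1 and 0.47 without WT Old replicate 2. *Frmd4a* was most like *Sparcl1* (r = 0.98).

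**Figure D2:**
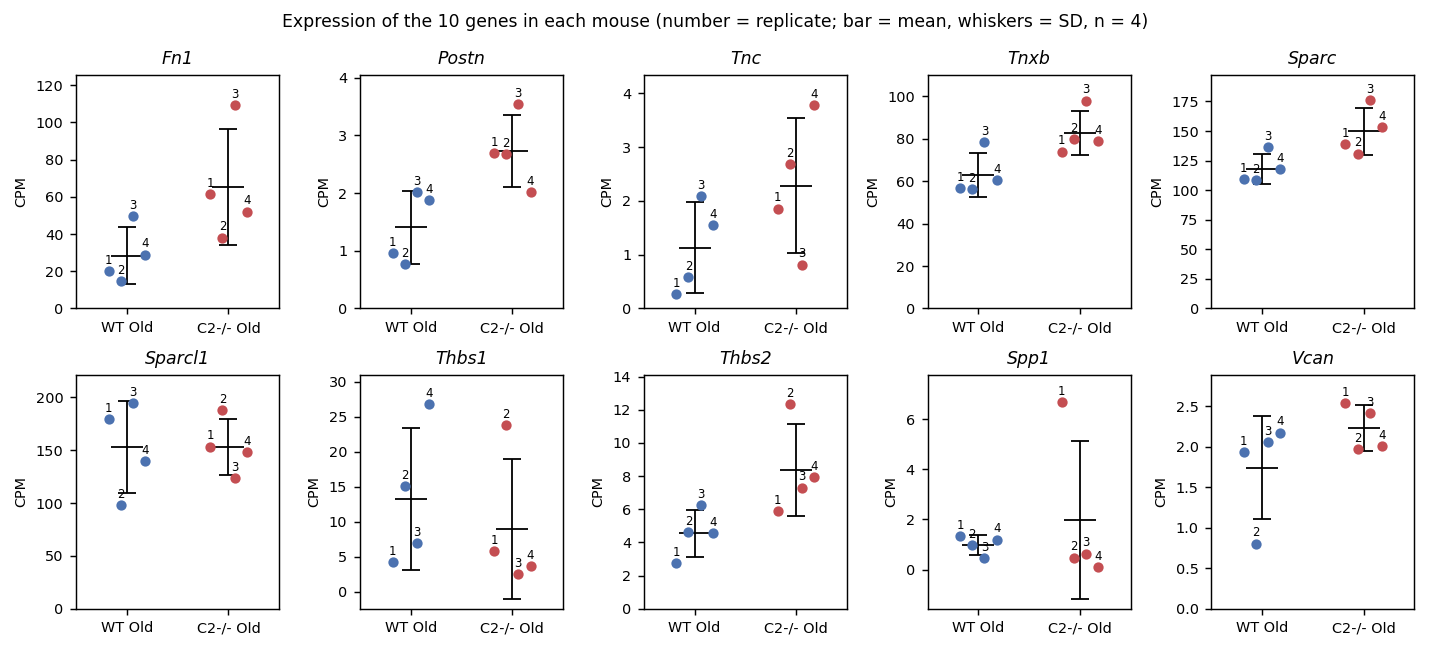
CPM of each of the 10 genes (y axis, linear, own scale per gene) in each WT Old mouse (blue) and C2-/- Old mouse (red), with replicate numbers, the mean as a bar and the SD as whiskers (n = 4). For *Fn1*, *Postn*, *Tnxb*, *Sparc* and *Thbs2*, 3 of 4 knockout mice lie above every wild-type mouse, and WT Old replicate 3 is the highest wild-type mouse.

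Thrombospondin 1 and thrombospondin 2 are trimeric glycoproteins that bind CD36 and CD47 and restrain the growth of vessels, and thrombospondin 1 can also activate latent TGF-beta. *Thbs2*, on chromosome 17 from 14665500 to 14694262 on the minus strand, had an unadjusted p under 0.05 in the comparison and in all its alternatives. Its level was 2.78, 4.63, 6.24 and 4.56 CPM in WT Old and 5.90, 12.3, 7.31 and 7.94 CPM in C2-/- Old. All knockout mice except replicate 1, which was just below WT Old replicate 3, were above every wild-type mouse. The means of 4.55 ± 1.41 and 8.37 ± 2.78 CPM (SD, n = 4 each) gave a log2 fold change of 0.88 (SE 0.28, 1.84-fold, unadjusted p = 0.00973, adjusted p = 0.755, edgeR; exact permutation p = 0.0571). Over the alternatives this p lay between 0.00246 and 0.0336. *Tgfbi*, a matrix protein that is induced by TGF-beta and related to periostin, was most like it (r = 0.97).

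*Thbs1*, on chromosome 2 from 118111876 to 118127133 on the plus strand, varied among mice of each genotype more than between the genotypes. Its level was 4.20, 15.1, 6.98 and 26.7 CPM in WT Old and 5.87, 23.8, 2.52 and 3.67 CPM in C2-/- Old, a 10.6-fold span over the 8 mice. WT Old replicates 2 and 4 and C2-/- Old replicate 2 were high and the other 5 mice low. The log2 fold change of -0.57 (SE 0.72) did not pass the test (unadjusted p = 0.450, edgeR; exact permutation p = 0.371). It was 0.05 without WT Old replicate 4 and -1.72 (edgeR, unadjusted p = 0.0172) without C2-/- Old replicate 2, so that a single mouse turned its direction or its call. Without C2-/- Old replicate 3 the log2 fold change was -0.25. The log2 ratio of *Thbs2* to *Thbs1* within each mouse was -1.24 ± 1.07 in WT Old and 0.42 ± 1.11 in C2-/- Old (SD, n = 4 each), a difference of 1.66 that did not pass the test (exact permutation p = 0.114, adjusted p = 0.343 over 3 ratios). With each mouse left out it lay between 1.23, without WT Old replicate 4, and 2.11, without C2-/- Old replicate 2.

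The 3 mice with high *Thbs1* were also those with the highest sum of the immediate early genes *Fos*, *Fosb*, *Junb*, *Egr1*, *Ier2* and *Atf3*, which cells switch on within minutes of a stimulus. The sum was 83.1, 543, 51.4 and 1227 CPM in WT Old and 42.7, 762, 53.2 and 34.9 CPM in C2-/- Old. All 6 genes had a lower fitted level in C2-/- Old, as had 6804 of the 12542 tested genes, with 0 of 6 at an unadjusted p under 0.05, against 5.29% of all tested genes. Each of the 6 was highest in these same 3 mice, so their directions are not separate results. The gene most like *Thbs1* across the mice was another of this kind, *Nr4a2* (r = 0.98). The part of this variation in the *Thbs1* result was not tested.

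*Spp1*, on chromosome 5 from 104435111 to 104441053 on the plus strand, encodes osteopontin, an integrin ligand made by macrophages and by bone and injured muscle. Its level was 1.35, 0.985, 0.448 and 1.19 CPM in WT Old and 6.66, 0.484, 0.639 and 0.104 CPM in C2-/- Old. C2-/- Old replicate 1 stood apart with 176 counts, while replicate 4 had 3 counts, the detection floor. The fitted log2 fold change of 0.98 (SE 0.96, unadjusted p = 0.329, edgeR) rested on that 1 mouse and was -1.27 (unadjusted p = 0.0590) without it, and the difference in mean log2 CPM was -0.27 (exact permutation p = 0.800). Without C2-/- Old replicate 3 the fitted log2 fold change was 1.28. No direction can be given for *Spp1*. The macrophage markers *Cd68*, *Adgre1*, *Csf1r*, *C1qa*, *C1qb*, *C1qc*, *Mrc1*, *Lyz2*, *Cd14* and *Itgam* summed to 67.9 CPM in C2-/- Old replicate 1, the lowest of the knockout mice, so *Spp1* and this sum were not high in the same mouse.

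*Vcan*, on chromosome 13 from 89655309 to 89743027 on the minus strand, was at 1.93, 0.802, 2.05 and 2.17 CPM in WT Old and 2.54, 1.97, 2.41 and 2.01 CPM in C2-/- Old, from 22 to 68 counts per mouse. WT Old replicate 2 lay below the other 7 mice, which were close together. The log2 fold change of 0.36 (SE 0.30, 1.28-fold) did not pass the test (unadjusted p = 0.263, edgeR; exact permutation p = 0.200), and it was 0.13 without that mouse. *Magi2* was the gene most like *Vcan* (r = 0.99), and *Hmga2* was most like *Spp1* (r = 0.98).

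Across the 10 genes, the mice did not keep 1 order. WT Old replicate 3 was the highest wild-type mouse for 7 genes and the lowest for *Spp1*, and WT Old replicate 2 was the lowest for 6. C2-/- Old replicate 3 was the highest knockout mouse for *Fn1*, *Postn*, *Tnxb* and *Sparc* and the lowest for *Tnc*, *Sparcl1* and *Thbs1*. Between the genotypes, the values did not overlap in 0 of the 10 genes, against 3.38% of all tested genes. The number of genes higher in C2-/- Old with an unadjusted p under 0.05 was 3 without WT Old replicate 1 (*Fn1*, *Postn* and *Thbs2*), 3 without C2-/- Old replicate 3 (*Fn1*, *Tnc* and *Thbs2*) and 6 without WT Old replicate 3, where *Tnc* was added. Exons of *Apol7d*, *Cyp21a2-ps* and *Gm29233* overlap *Fn1*, *Tnxb* and *Thbs1* on the opposite strand, and those of *Gm42793* overlap *Spp1* on the same strand, so the counts of these genes are uncertain to that extent. The heat map of levels relative to the mean of the 8 mice shows these orders, with *Fn1*, *Postn*, *Tnxb*, *Sparc* and *Thbs2* at the top.

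**Figure D3:**
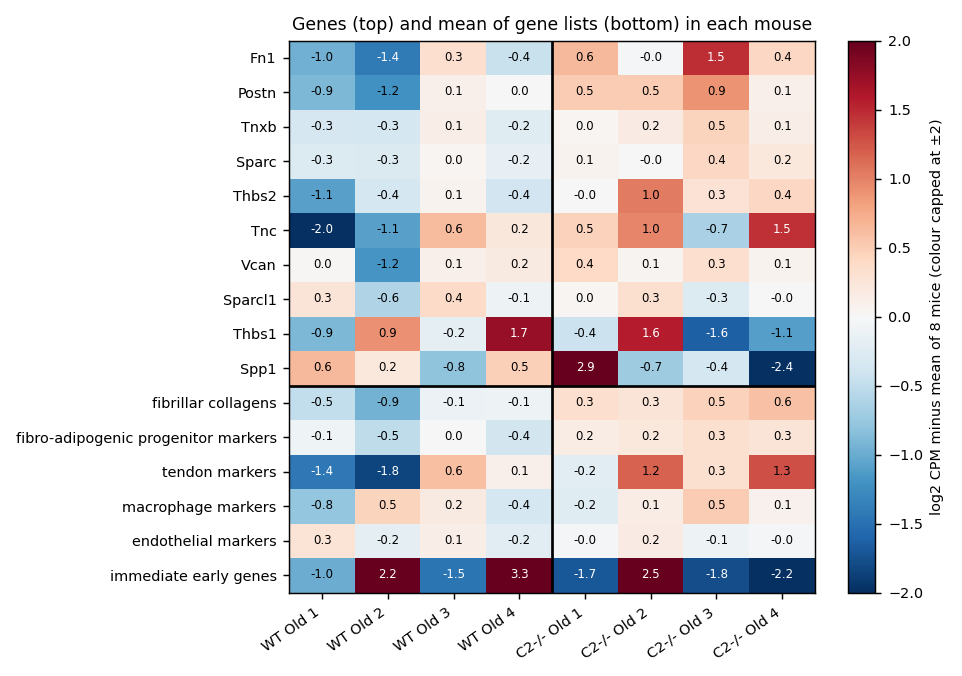
Log2 CPM minus the mean of the 8 mice for the 10 genes (above the line) and the mean over the genes of 6 lists (below it) in each mouse, with blue for below and red for above the mean and colours capped at 2. *Fn1* ranges from -1.42 in WT Old replicate 2 to 1.48 in C2-/- Old replicate 3, while *Thbs1* and the immediate early genes are high in WT Old replicates 2 and 4 and C2-/- Old replicate 2.

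Levels were compared between the genes as CPM per kilobase of the longest coding transcript. *Sparcl1* (55.5 ± 15.7 in WT Old and 55.6 ± 9.57 in C2-/- Old) and *Sparc* (51.3 ± 5.59 and 65.1 ± 8.68) were at the top and overlapped each other (SD, n = 4 each). Together they made up between 83.1% and 92.1% of the summed level of the 10 genes per kilobase in a mouse. *Tnxb* (5.16 ± 0.854 and 6.78 ± 0.862) and *Fn1* (3.40 ± 1.84 and 7.84 ± 3.73) came next, below *Sparc* in every mouse, and exchanged their order between the genotypes with overlapping ranges. *Thbs1* (2.27 and 1.53), *Thbs2* (0.772 and 1.42), *Spp1* (0.660 and 1.31), *Postn* (0.439 and 0.852), *Tnc* (0.158 and 0.321) and *Vcan* (0.140 and 0.180) followed, and neighbours in this order overlapped in range throughout. The share of *Fn1* in the sum was 2.73% on average in WT Old and 5.54% in C2-/- Old. By the TPM values of the authors the order in WT Old was the same except that *Vcan* came before *Tnc*.

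**Figure D4:**
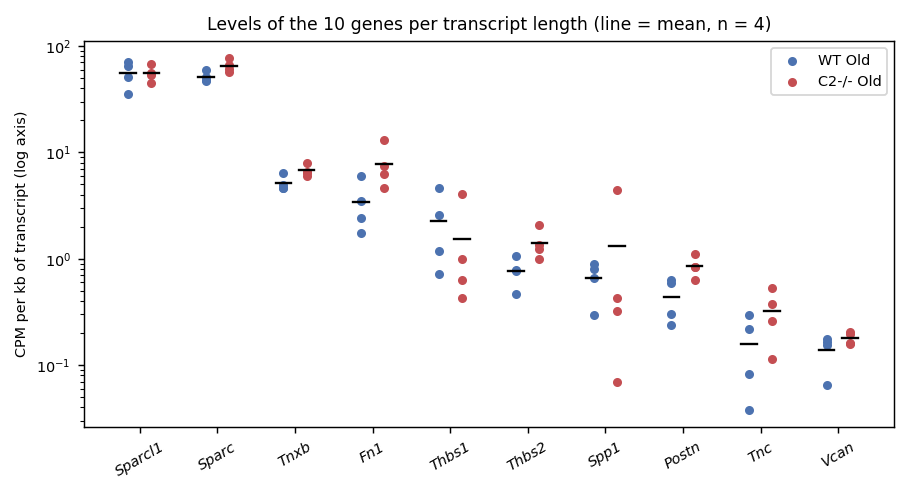
CPM per kilobase of transcript (y axis, log scale) of the 10 genes in each WT Old mouse (blue) and C2-/- Old mouse (red), ordered by the mean in WT Old, with lines for the means (n = 4). *Sparcl1* and *Sparc* lie above all other genes in every mouse, and the single high *Spp1* value is C2-/- Old replicate 1.

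In the annotation of the deposited table, 6 of the genes (*Fn1*, *Spp1*, *Thbs1*, *Thbs2*, *Tnc* and *Tnxb*) belong to the KEGG pathway of ECM-receptor interaction, which holds 80 genes of the table. Their receptors are mainly integrins, with CD36 and CD47 for the thrombospondins, CD44 for osteopontin and hyaluronan, and syndecans for fibronectin. Of 17 receptor genes, 16 were tested, with 12 at a higher and 4 at a lower fitted level in C2-/- Old and a median log2 fold change of 0.23. Of all tested genes, 45.8% were higher. An unadjusted p under 0.05 was reached by 2 receptor genes, against 5.29% of all tested genes. These were *Lrp1*, an endocytic receptor that clears thrombospondins (40.5 ± 9.04 CPM in WT Old and 61.1 ± 4.64 in C2-/- Old, log2 fold change 0.59, SE 0.16, unadjusted p = 0.00355), and *Cd44* (3.49 ± 0.393 and 4.83 ± 0.225 CPM, log2 fold change 0.47, SE 0.15, unadjusted p = 0.0109, SD, n = 4 each, edgeR). The genotypes did not overlap for either gene, which held for 3.38% of all tested genes. The receptors with the highest levels were *Cd36* (203 and 166 CPM, log2 fold change -0.30, unadjusted p = 0.164) and the integrin chain *Itgb5* (177 and 160.2 CPM, -0.15, unadjusted p = 0.209), and neither passed the test.

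Of 13 partners of versican and proteases that cut it, 8 were tested, with a median log2 fold change of 0.50. A higher fitted level in C2-/- Old was found for 7 and a lower one for 1, while 45.8% of all tested genes were higher. An unadjusted p under 0.05 was reached by 4, against 5.29% of all tested genes. The 4 were the fibulins *Fbln2* (46.9 and 67.2 CPM, log2 fold change 0.52, SE 0.18, unadjusted p = 0.0141) and *Fbln1* (5.78 and 9.71 CPM, 0.75, SE 0.30, unadjusted p = 0.0330), the hyaluronan synthase *Has3* (0.881 and 1.68 CPM, 0.93, SE 0.34, unadjusted p = 0.0216) and the protease *Adamts5* (9.50 and 13.2 CPM, 0.47, SE 0.20, unadjusted p = 0.0384, all from edgeR). The number of such genes was 1 without WT Old replicate 1, 2 without C2-/- Old replicate 2 or 4, and 2 with sample quality weights in limma-voom. *Adamts1*, the most abundant of these proteases, was at 25.5 and 20.9 CPM and did not pass the test (edgeR, unadjusted p = 0.384).

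Of 18 other matricellular genes, 12 were tested, with a median log2 fold change of 0.39. A higher fitted level in C2-/- Old was found for 9 and a lower one for 3, while 45.8% of all tested genes were higher. An unadjusted p under 0.05 was reached by 2, against 5.29% of all tested genes. *Fstl1*, a secreted relative of SPARC, was at 12.9 ± 3.39 CPM in WT Old and 21.9 ± 3.92 CPM in C2-/- Old (SD, n = 4 each) without overlap of the genotypes (log2 fold change 0.76, SE 0.20, unadjusted p = 0.00362, edgeR). Such a lack of overlap was found for 3.38% of all tested genes. *Tgfbi* was at 15.4 and 20.9 CPM (0.44, SE 0.19, unadjusted p = 0.0422). The number of such genes was 5 without WT Old replicate 3 and 1 without WT Old replicate 1 or C2-/- Old replicate 3 or 4. The most abundant genes of this list, *Cyr61* (153 and 97.7 CPM, unadjusted p = 0.314) and *Smoc2* (53.0 and 67.3 CPM, unadjusted p = 0.104), did not pass the test. Of 12 TGF-beta ligands, receptors and response genes, 11 were tested, 5 at a higher and 6 at a lower fitted level, with a median log2 fold change of -0.05 and 0 at an unadjusted p under 0.05 (1 without WT Old replicate 3 or 4 or C2-/- Old replicate 2). Its most abundant genes were *Ltbp3*, which binds latent TGF-beta (118 and 107 CPM, unadjusted p = 0.380), and *Tgfb3* (46.5 and 52.9 CPM, unadjusted p = 0.208, edgeR). An adjusted p under 0.05 was reached by 0 genes of these 4 lists.

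The markers of cells that the muscle could hold, and the fibrillar collagens, were set beside the 10 genes. Over all tested genes, 45.8% were higher in C2-/- Old and 5.29% had an unadjusted p under 0.05. The genotypes did not overlap in 3.38% of them, a share for single genes, and none was computed for sums. The fibrillar collagens summed to between 86.7 and 253 CPM in WT Old and between 295 and 507 CPM in C2-/- Old without overlap, with 5 of 8 tested genes at an unadjusted p under 0.05, all higher. Markers of fibro-adipogenic progenitors (*Pdgfra*, *Dcn*, *Lum*, *Dpt*, *Pi16*, *Ly6a*, *Cd34*, *Mfap5*, *Gsn* and *Clec3b*) summed to between 697 and 840.0 CPM in WT Old and between 875 and 1061 CPM in C2-/- Old, also without overlap, with all 10 at a higher fitted level and 4 at an unadjusted p under 0.05. *Gsn* (405 and 555 CPM) and *Dcn* (235 and 294 CPM) weighed most in this sum. As single genes, *Pdgfra*, *Pi16*, *Ly6a*, *Cd34* and *Mfap5* overlapped between the genotypes, and the other markers of this list did not. Tendon markers (*Tnmd*, *Scx*, *Mkx*, *Fmod*, *Kera*, *Chad*, *Thbs4*, *Comp* and *Cilp2*) summed to between 59.7 and 197 CPM in WT Old and between 100.3 and 277 CPM in C2-/- Old. Of 8 tested, 7 had a higher fitted level and 2 an unadjusted p under 0.05, while *Scx* was lower (log2 fold change -0.13). Smooth muscle and pericyte markers summed to between 252 and 398 CPM in WT Old and between 376 and 449 CPM in C2-/- Old (6 of 6 higher, 1 at an unadjusted p under 0.05), macrophage markers to between 42.3 and 103 CPM in WT Old and between 67.9 and 109 CPM in C2-/- Old (8 of 10 higher, 0 at an unadjusted p under 0.05), and endothelial markers to between 323 and 456 CPM in WT Old and between 351 and 424 CPM in C2-/- Old (4 of 8 higher, 0 at an unadjusted p under 0.05). Schwann cell markers summed to between 51.5 and 108 CPM in WT Old and between 44.9 and 81.5 CPM in C2-/- Old (1 of 6 higher), and blood markers to between 483 and 6294 CPM in WT Old and between 907 and 5886 CPM in C2-/- Old (1 of 3 higher), with 0 at an unadjusted p under 0.05 in either list. Benjamini-Hochberg adjustment over all tested genes left no collagen and no marker of these lists with a p under 0.05 (edgeR). No marker of these lists was at 0 in every mouse. The part of these markers in the higher levels of *Fn1*, *Postn*, *Tnxb*, *Sparc* and *Thbs2* was not tested.

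Among single genes, the mouse lowest in *Fn1*, WT Old replicate 2, had the lowest sum of fibrillar collagens (86.7 CPM) and the mouse highest in *Fn1*, C2-/- Old replicate 3, the highest (507 CPM). The 3 mice highest in *Tnc*, C2-/- Old replicates 4 and 2 and WT Old replicate 3, were the 3 highest in the sum of the tendon markers, at 277, 265 and 197 CPM, and tenascin C is itself a product of tendon. Not all tendon markers followed this order. *Fmod*, the highest of them in these 3 mice, was at 147, 125 and 95.2 CPM, while *Scx* was at 6.59, 14.1 and 6.76 CPM. The lowest *Scx* values of the 8 mice were those of C2-/- Old replicate 4 and WT Old replicate 3. The part of the tendon markers in the *Tnc* values was not tested.

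**Figure D5:**
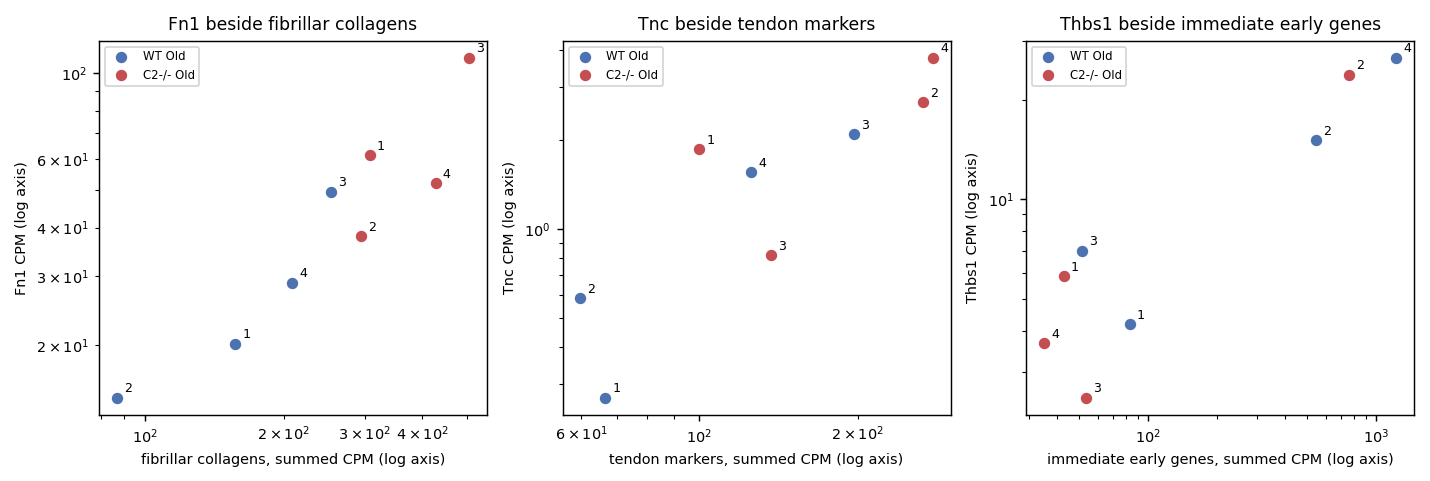
CPM of *Fn1*, *Tnc* and *Thbs1* (y axes, log scale) against the summed CPM of fibrillar collagens, tendon markers and immediate early genes (x axes, log scale) in the 8 mice, WT Old in blue and C2-/- Old in red, with replicate numbers. The 3 mice with the highest immediate early gene sums (543, 762 and 1227 CPM) are the 3 with the highest *Thbs1*.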

How the data were processed

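RNA from the TA muscle of 8 mice was sequenced, and genotype and replicate number were taken from the labels. The authors deposited one table with expected counts per gene, that is estimated counts, without normalization, which per the methods came from reads aligned with HISAT to GRCm38 and counted with featureCounts. In each mouse, 5.50% to 6.53% of these values carry decimals, so all were rounded before testing. The labels name Bowtie2 beside HISAT, and which step gave the decimals could not be told. The TPM values deposited by the authors served only to check the order of levels. The 8 FPKM columns per mouse were not used, nor were the columns that hold the authors' own DESeq2 comparison (log2 fold change, p-value and q-value). Of 16687 rows, 16686 had a gene ID, and 24 symbols were restored from these IDs.

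Genotypes were compared with edgeR's quasi-likelihood test (edgeR 4.0.16, R 4.3.3) with TMM factors (0.929 to 1.03), its default filter on low counts and Benjamini-Hochberg adjustment over 12542 genes. The limma-voom test named in the methods was run as an alternative. Because the methods write adjusted in parentheses, both unadjusted and adjusted p-values were counted, at 0.05. Single values were compared with two-sided exact permutation tests of log2 CPM with a prior count of 2. The scripts were tested on simulated data. Mice are separate animals, and p-values set the difference between the genotypes against the spread between mice. In edgeR's test this spread is estimated with information shared across genes.

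The 10 genes and the lists of receptors, partners and markers were chosen with earlier results of these data known. All 10 are named. Of each list that is not a marker list, up to 4 genes with an unadjusted p under 0.05 and the 2 with the highest level are named, and for each of the 10 genes the tested gene with the highest Pearson correlation over the 8 mice, which shares libraries with it and carries no p. Named for single statements, and outside this rule, are the genes that overlap the 10 genes and the genes of the marker lists. Alternatives were RLE factors, library size only, no filter on low counts, at least 10 counts in every mouse, limma-voom (limma 3.58.1) with equal weights or with quality weights for samples, the Wald test of DESeq2 1.42.0, a block for the replicate number and the omission of each mouse in turn. Within-mouse ratios of related genes were added after the data had been seen. Motifs were searched in 250 bases upstream of RefSeq starts (GRCm38.p6), of which 7 of the 10 genes had an entry, with the entry nearest to the GENCODE start taken where there were 2. Exons of other genes that overlap the 10 genes were found in GENCODE vM21. The deposited table gives *Tnc*, *Sparcl1* and *Vcan* the strand opposite to that of the annotation. Python 3.11.15 with pandas 2.3.3 and scipy 1.17.1 served for the remaining steps.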

Additional observations from a re-analysis of the deposited data

Results flagged for a closer look

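In groups of 4 mice, a sample was marked as far from the others where its gap to the nearest of them, divided by the range of the group, exceeded Dixon's 95% critical value, which chance gives in about 1 of 20 groups. This held for 3 of 54 groups. The log2 CPM of *Vcan* was low in WT Old replicate 2 (ratio 0.878, at 0.802 CPM). The log2 sum of the other matricellular genes was high in C2-/- Old replicate 2 (0.896, at 466 CPM against 254 to 270.4 CPM in the other knockout mice), and so was the log2 sum of the immediate early genes in the same mouse (0.863, at 762 CPM). In the matricellular sum, *Cyr61* alone was at 214 CPM in this mouse and at 80.6, 57.1 and 39.5 CPM in C2-/- Old replicates 1, 3 and 4. Whether the 2 flags share a source was not tested.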

How the results depend on the processing

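Depth limits *Tnc*, *Spp1*, *Postn* and *Vcan*, whose counts per mouse reached down to 7, 3, 21 and 22, and with at least 10 counts in every mouse *Tnc* and *Spp1* could not be tested. DESeq2 gave no p for *Spp1*. Of the 447 alternative values computed, 404 kept their direction and their side of 0.05, or, for counts of genes, stayed within 1.5 times the reported count. These include permutation tests with a mouse left out, of genes and of ratios. Their smallest possible p is 0.0571, so they could not move under 0.05 and their agreement on that side carries no weight. The log2 fold change of *Sparcl1*, 0.00, was -0.021 with sample quality weights in limma-voom. That of *Spp1* was -0.43 with limma-voom, -0.55 with sample quality weights and -0.092 with the replicate number as a block. With DESeq2, 39 genes in place of 4 had an adjusted p under 0.05. Of the marker genes, 8 had an unadjusted p under 0.05, and 14 with sample quality weights. Of the versican partners it was 2 in place of 4 with these weights. The exact permutation p of *Postn* was 0.0286 with library size only. The cause of these changes was not tested.

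The same replicate numbers stand in both genotypes, and whether they pair the mice could not be decided. The correlations of deviations from the group means were 0.27, 0.04, -0.05 and 0.02 for numbers 1 to 4. Only 1 of 4 wild-type mice correlated best with its own number. With so few mice, these values cannot exclude a pairing. With the replicate block, 5 of the 10 genes again had an unadjusted p under 0.05, with 4.21e-05 for *Fn1* (adjusted p 0.0755, where the range over all alternatives was 0.0755 to 1.0), 2 versican partners and 15 marker genes.

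With each mouse left out in turn, log2 fold changes ranged from 0.84 to 1.63 for *Fn1*, 0.76 to 1.18 for *Postn*, 0.66 to 1.5 for *Tnc*, 0.31 to 0.52 for *Tnxb*, 0.26 to 0.43 for *Sparc*, -0.16 to 0.14 for *Sparcl1*, -1.72 to 0.047 for *Thbs1*, 0.64 to 1.08 for *Thbs2*, -1.27 to 1.38 for *Spp1* and 0.13 to 0.50 for *Vcan*. *Sparcl1* was at -0.16 without WT Old replicate 2, -0.03 without WT Old replicate 4 and -0.11 without C2-/- Old replicate 2. The number of the 10 genes with an unadjusted p under 0.05 ranged from 3 to 6 (higher) and from 0 to 1 (lower, *Thbs1* without C2-/- Old replicate 2). Over all tested genes the number ranged from 504 to 983 (adjusted: 4 to 7), in other matricellular genes from 1 to 5, in receptors from 2 to 3, in versican partners from 1 to 4, in TGF-beta genes from 0 to 1 and in marker genes from 4 to 21. Exact permutation p-values ranged from 0.0571 to 0.114 for *Fn1*, *Postn*, *Tnxb*, *Sparc* and *Thbs2*, from 0.114 to 0.400 for *Tnc*, 0.171 to 0.400 for *Vcan*, 0.114 to 0.686 for *Thbs1*, 0.514 to 0.971 for *Sparcl1* (0.514 and 0.857 with a turned direction) and 0.171 to 0.971 for *Spp1* (0.743 with a turned direction). With a mouse left out, 0.0571 is the smallest p this test can give, so none of these could fall under 0.05.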
